A study of Mus musculus with 12 samples.

Results

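Gsta3, Gsta4, Gstm1, Gstm2, Gstm5, Gsto1, Gstt1 and Mgst1 encode glutathione transferases. They were followed in mouse embryonic stem cells that carry or lack Tcf3, with and without Wnt3a. The 8 genes were chosen by name with their intensities in all 4 groups already known, and all probe sets that the platform annotation gives to 1 of these symbols were taken, 14 of the 45101 on the array. Because those intensities chose the genes, the values of these genes are given as a description, with no test. A floor on dim values was set at the 40th percentile of all values, 5.56 on the log2 scale, and a probe set was kept if at least 3 of 12 arrays lay above it. This kept 13 of the 14, with at least 1 for each gene, and 13811 genes in all. Tcf3 is now named Tcf7l1 and encodes a DNA-binding protein that works with beta-catenin in Wnt signalling. The 12 Affymetrix arrays fell into 4 groups of 3: Tcf3-/- (knockout) cells and Tcf3+/+ (wild-type) cells in medium with 50 ng/ml recombinant Wnt3a for 24 h, and knockout and wild-type cells in control medium. All cells grew on gelatin without feeder cells, in serum medium with the cytokine Lif. The labels do not say how many knockout lines there were, or whether the replicates were separate cultures, so the p-values given below for other genes cover array-to-array spread that may be technical. The number of arrays limits the precision.

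Glutathione transferases join the tripeptide glutathione to reactive, mostly electrophilic molecules, and the conjugates are then pumped out of the cell and trimmed to mercapturates. The soluble enzymes form classes named by Greek letters, of which alpha (Gsta3, Gsta4), mu (Gstm1, Gstm2, Gstm5), omega (Gsto1) and theta (Gstt1) are represented here, and Mgst1 belongs to a separate family of membrane proteins, the MAPEG family. Many of these genes are known targets of the transcription factor Nrf2 (gene Nfe2l2), which binds the antioxidant response element when its inhibitor Keap1 releases it.

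The upstream sequences of 4 of the genes are shown because they lie before the gene that differed most between genotypes (Gsta3) and before 3 that stood apart from it in direction or size (Gstm1, Gstm5 and Gsto1). Each is the 250 bases before an annotated start, read in the direction of the gene, from RefSeq on mouse build GRCm38.p6. Capitals mark a match to a searched motif. The windows are chr1:21240335-21240584 on the plus strand for Gsta3, chr3:107895604-107895853 on the plus strand for Gstm5, chr3:108017819-108018068 on the minus strand for the second of 2 Gstm1 starts, and chr19:47854723-47854972 on the plus strand for Gsto1.
Gsta3: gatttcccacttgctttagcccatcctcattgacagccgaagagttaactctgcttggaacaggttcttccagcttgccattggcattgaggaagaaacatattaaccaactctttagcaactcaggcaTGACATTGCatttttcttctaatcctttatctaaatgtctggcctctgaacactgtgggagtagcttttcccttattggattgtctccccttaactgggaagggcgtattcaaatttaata
Gstm1: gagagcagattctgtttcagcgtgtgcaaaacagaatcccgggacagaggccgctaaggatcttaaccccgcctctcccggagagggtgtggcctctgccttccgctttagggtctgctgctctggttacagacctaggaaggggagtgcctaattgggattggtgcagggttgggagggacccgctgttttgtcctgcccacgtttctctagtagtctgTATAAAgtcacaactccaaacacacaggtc
Gstm5: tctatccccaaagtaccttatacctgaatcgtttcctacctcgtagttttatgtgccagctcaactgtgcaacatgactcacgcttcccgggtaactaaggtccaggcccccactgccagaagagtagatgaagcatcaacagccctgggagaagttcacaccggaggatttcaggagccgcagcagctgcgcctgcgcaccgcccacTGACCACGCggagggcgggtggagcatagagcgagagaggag
Gsto1: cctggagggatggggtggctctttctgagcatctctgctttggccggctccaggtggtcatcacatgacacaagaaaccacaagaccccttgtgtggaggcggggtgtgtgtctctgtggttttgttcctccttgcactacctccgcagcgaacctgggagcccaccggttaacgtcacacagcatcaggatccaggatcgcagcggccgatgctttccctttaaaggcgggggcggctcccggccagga
The core of the antioxidant response element, TGACNNNGC, was searched on both strands, and it was found 121 bases before the Gsta3 start, as TGACATTGC, and 42 bases before the Gstm5 start, as TGACCACGC. It was also found on the reverse strand before 1 of the 2 starts of Mgst1, 56 bases away. The same letters occur in 10.2% of the 32851 mouse windows of this length. The Tcf/Lef motifs CTTTGAT, present in 3.21% of all windows, and CTTTGTT, present in 5.03%, had no match in any of the 9 windows available for 7 of the 8 genes. TATAAA, in 12.4% of all windows, was found 30 bases before the Gstm1 start shown. These motifs do not overlap each other in the windows shown, and a match is a description of the letters, not evidence of binding.

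The gene deleted in the knockout, Tcf7l1, had a log2 intensity of 9.47 ± 0.11 on knockout control arrays and 10.85 ± 0.07 on wild-type control arrays (SD, n = 3), where it fell by 1.38 in the knockout (limma adjusted p = 1.17e-06). With Wnt3a it fell by 1.28 in the knockout (limma adjusted p = 7.75e-06). Its knockout level stayed above the floor on dim values (5.56), and where its probe set lies relative to the deletion was not analysed here. All 10 embryonic stem cell markers lay above the floor on all arrays. In control medium 7 were higher in the knockout, among them Nanog (0.99), and 1 lower, Lin28a (-0.25). Over all genes 19.9% were called higher and 22.3% lower. With Wnt3a 4 markers were higher and 1 lower, against 13.2% and 14.7% of all genes. The log2 summed level of these markers was 16.64 to 16.67 on knockout and 16.29 to 16.40 on wild-type control arrays. On Wnt3a arrays it was 16.68 to 16.76 and 16.51 to 16.61. Of 10 fibroblast and feeder markers 5 lay above it on all arrays and Col3a1 and Lum below it on all, and in control medium 2 of 8 tested were higher in the knockout, among them Thy1 (0.86), and 3 lower, among them Col1a2 (-0.65). Their log2 summed level was 9.37 to 9.76 on knockout and 9.43 to 9.65 on wild-type control arrays. Of 7 liver and gut markers 3 lay above the floor on all arrays and Alb, Cdh17 and Fabp1 below it on all, and 1 of 4 tested, Hnf4a, was higher in the knockout (0.58 in control medium and 0.59 with Wnt3a). Their log2 summed level was 9.12 to 9.25 on knockout and 8.92 to 8.97 on wild-type control arrays. Of 5 blood markers on the array 2 lay above the floor on all arrays and Ptprc and Tal1 below it on all. The log2 of the summed level of 8 trophectoderm markers was 11.17 to 11.25 on knockout arrays and 11.55 to 11.83 on wild-type arrays in control medium, and 10.98 to 11.11 on knockout arrays and 11.65 to 11.67 on wild-type arrays with Wnt3a, with Elf5 below the floor on all arrays. That of 10 primitive endoderm markers was 10.38 to 12.47 on knockout and 10.88 to 11.39 on wild-type control arrays, and 11.80 to 12.02 on knockout and 11.45 to 11.88 on wild-type Wnt3a arrays, with Afp below the floor on all. Lama1 and Pdgfra were the 2 of 9 tested that were higher in the knockout in control medium (1.37 and 1.10) and also higher with Wnt3a in wild type (1.51 and 1.15). The knockout control arrays differed among themselves in both, with an SD of 0.94 and 1.01, against 0.34 and 0.06 on wild-type control arrays. Pdgfra is also in the fibroblast and feeder list. The dap spike-in control averaged 11.63 on knockout and 11.75 on wild-type Wnt3a arrays and 4.39 and 4.43 on control-medium arrays of knockout and wild type, so medium and array preparation cannot be told apart. The actin 3′ minus 5′ difference, a sign of RNA quality, was 0.35 in knockout and 0.21 in wild type in control medium, and 0.38 and 0.26 with Wnt3a. The part of these marker and RNA quality differences in the genotype and Wnt3a differences given below was not tested.

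Gsta3, an alpha-class enzyme known in mouse for conjugating the reactive epoxide of aflatoxin, differed most of the 8 genes. In control medium its log2 intensity was 10.20, 9.76 and 10.00 on knockout arrays, against 6.13, 6.23 and 6.12 on wild-type arrays. With Wnt3a it was 10.07, 9.84 and 9.49 on knockout arrays, against 7.74, 8.17 and 8.72 on wild-type arrays. The knockout arrays were therefore above the wild-type arrays in both media with no overlap, by 3.82 ± 0.21 (SE, n = 3 arrays a group) in control medium, or 14.2-fold, and by 1.59 ± 0.21, or 3.01-fold, with Wnt3a. In wild-type cells the Wnt3a arrays were all higher than the control arrays, by 2.05 or 4.14-fold. So were the summed levels of the primitive endoderm markers and of the embryonic stem cell markers, whose part in this was not tested. In knockout cells the Gsta3 readings of the 2 media overlapped and their means differed by -0.18. The interaction, or the knockout difference with Wnt3a minus the knockout difference in control medium, was -2.23 ± 0.30. Ordered by mean, knockout control and knockout Wnt3a arrays came first and overlapped, followed by wild-type Wnt3a arrays and then wild-type control arrays.

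A second Gsta3 probe set was dim. Its knockout control arrays read 6.07, 5.74 and 5.93, against 4.39, 4.44 and 4.55 on wild-type control arrays. With Wnt3a the knockout arrays read 5.54, 5.64 and 5.40, against 4.44, 4.66 and 4.58 on wild-type arrays. It lay above the floor of 5.56 on 4 of 12 arrays, all of them knockout arrays, through which alone it passed the filter. Both wild-type groups lay below the floor, so its knockout level in control medium is given as at least 1.28-fold higher, no fold is given with Wnt3a, and its readings say nothing of Wnt3a in wild type. Within the knockout, its Wnt3a arrays all lay below its control arrays, at least 1.28-fold lower, whereas on the bright probe set they overlapped. The mean of both probe sets includes readings below the floor. With it the Gsta3 differences became 2.64 between genotypes in control medium and 1.28 with Wnt3a. For Wnt3a they became 1.08 in wild type and -0.29 in the knockout, and the interaction became -1.36.

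**Figure D1:**
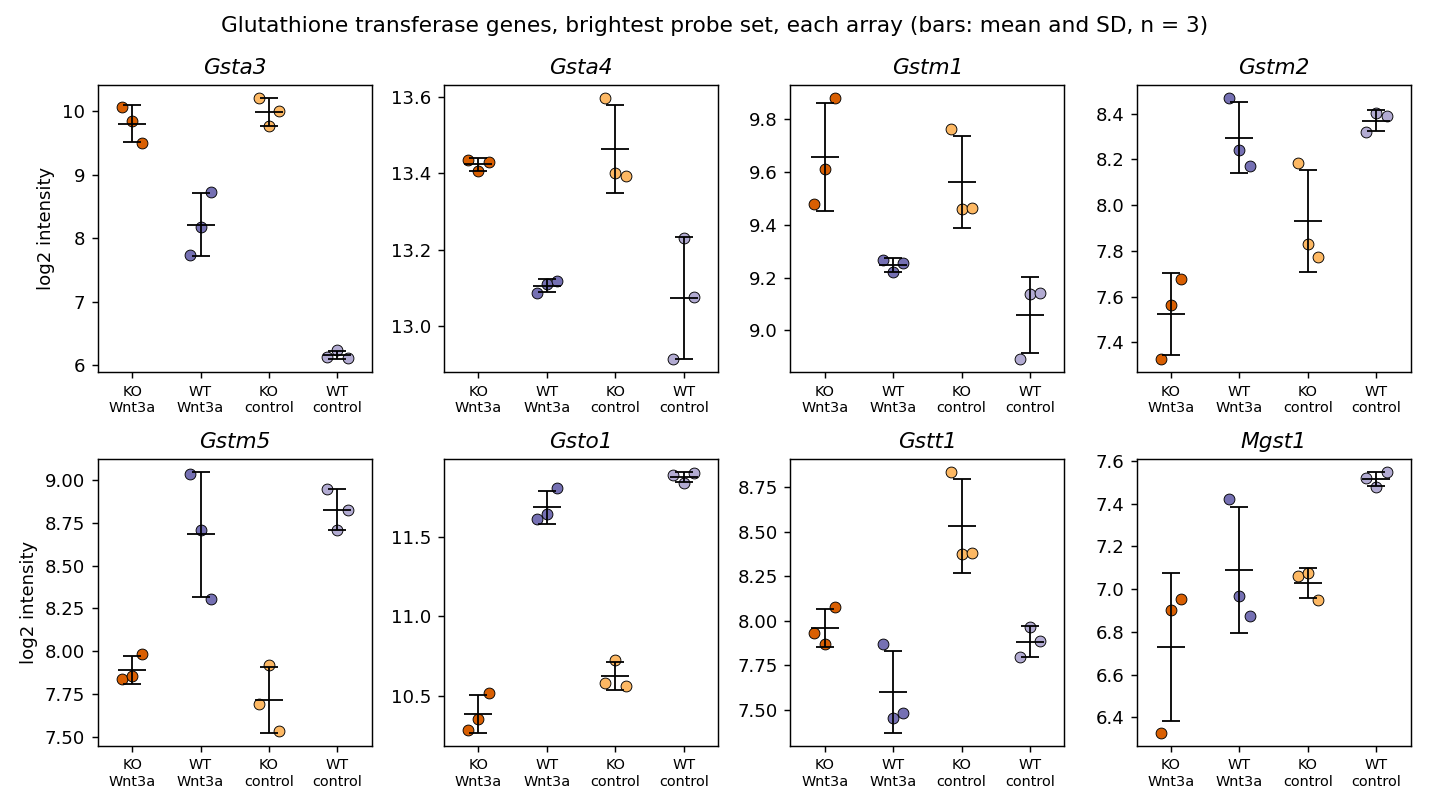
Log2 intensity of the brightest probe set of each of the 8 genes on each of 12 arrays (points), by genotype and medium, with the mean and SD of 3 arrays as bars. Gsta3 had its lowest values on wild-type control arrays, 6.12 to 6.23, while Gsto1, Gstm5 and Gstm2 were lower on knockout arrays than on wild-type arrays in both media. Each panel has its own scale, which does not start at 0.

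Gsta4, whose enzyme removes the lipid peroxidation product hydroxynonenal, had higher knockout arrays in both media, by much less than Gsta3. Its log2 intensity in control medium was 13.60, 13.40 and 13.39 on knockout arrays, against 12.92, 13.23 and 13.08 on wild-type arrays. With Wnt3a it was 13.44, 13.40 and 13.43 on knockout arrays, against 13.09, 13.11 and 13.12 on wild-type arrays. The differences were 0.39 ± 0.08 (1.31-fold) and 0.32 ± 0.08 (1.25-fold), with no overlap, and within each genotype the arrays of the 2 media overlapped.

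The 3 mu-class genes did not share a direction. Gstm1, a broadly acting conjugating enzyme, read 9.76, 9.46 and 9.46 on knockout control arrays and 8.89, 9.14 and 9.14 on wild-type control arrays with its brightest probe set. With Wnt3a the same probe set read 9.48, 9.61 and 9.88 on knockout arrays and 9.27, 9.22 and 9.26 on wild-type arrays. Knockout arrays were higher by 0.50 ± 0.11 (1.42-fold) in control medium and by 0.41 ± 0.11 (1.33-fold) with Wnt3a. The other 3 Gstm1 probe sets were higher on knockout control arrays too, by 0.48, 0.32 and 0.34, none overlapping. With Wnt3a, 2 of these 3 overlapped between genotypes, and the mean of all 4 probe sets differed by 0.25.

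Gstm2 and Gstm5, mu-class genes in the same chromosomal cluster, were lower on knockout arrays. Gstm2 read 8.18, 7.83 and 7.77 on knockout control arrays, against 8.32, 8.40 and 8.39 on wild-type control arrays. With Wnt3a it read 7.33, 7.56 and 7.68 on knockout arrays, against 8.47, 8.24 and 8.17 on wild-type arrays. The arrays of the 2 genotypes did not overlap in either medium, and the differences were -0.44 ± 0.12, or 1.36-fold lower in the knockout, and -0.77 ± 0.12, or 1.71-fold lower. Within the knockout, the Wnt3a arrays were also all below the control arrays, by -0.41, while in wild type they overlapped.

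Gstm5 had the larger genotype difference of these, and its Wnt3a arrays overlapped its control arrays in both genotypes. It read 7.69, 7.92 and 7.53 on knockout control arrays, against 8.95, 8.71 and 8.83 on wild-type control arrays. With Wnt3a it read 7.83, 7.85 and 7.99 on knockout arrays, against 9.04, 8.71 and 8.30 on wild-type arrays. Knockout was lower by -1.11 ± 0.15 (2.16-fold lower) in control medium and by -0.79 ± 0.15 (1.73-fold lower) with Wnt3a.

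Along chromosome 3 the mu-class genes lie in the order Gstm5, Gstm7, Gstm6, Gstm3, Gstm2, Gstm1 and Gstm4, so the lower genes Gstm5 and Gstm2 are not next to each other. Of the 4 that are not among the 8 genes, Gstm3 rose in the knockout in control medium, by 0.54 ± 0.08 (limma adjusted p = 0.000219), and Gstm7, Gstm6 and Gstm4 did not pass, with 0.02, 0.26 and 0.01. Another Gstm3 probe set gave 0.14, and the mean of its probe sets 0.34. Related mu-class sequences can share probes, in particular in probe sets whose names end in _x_at or _s_at, as with Gstm1 (2 of 4 probe sets) and Gstm3, so their readings may not be independent of each other.

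**Figure D2:**
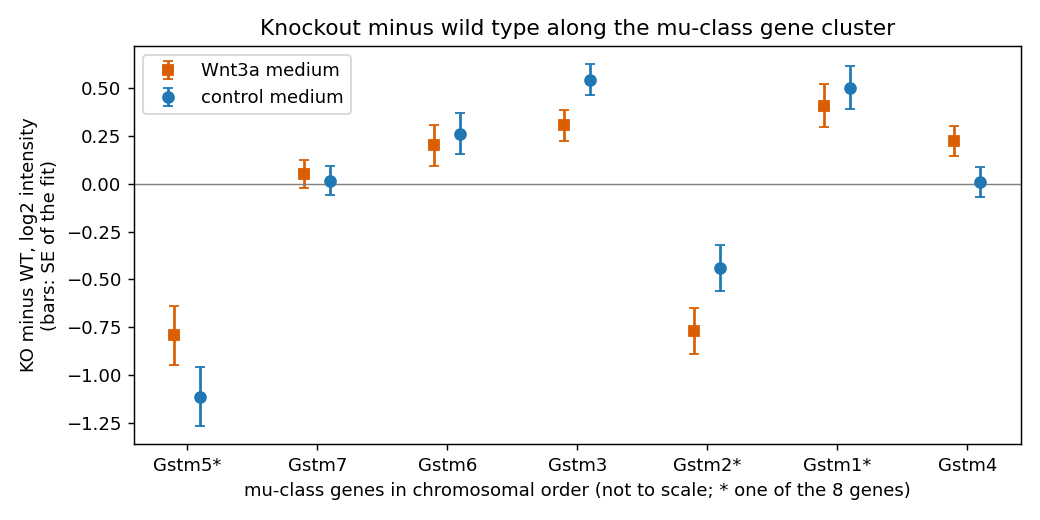
Knockout minus wild type in log2 intensity (vertical axis) for the 7 mu-class genes in chromosomal order, in Wnt3a medium (squares) and control medium (circles), with the SE of the fit as bars. Gstm5 and Gstm2 lie below 0 in both media and Gstm1 and Gstm3 above.

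Gsto1, an omega-class enzyme with a catalytic cysteine that also reduces dehydroascorbate, was lower on knockout arrays in both media, by about the same amount on its brightest probe set. Its brightest probe set read 10.58, 10.73 and 10.57 on knockout control arrays, against 11.89, 11.84 and 11.90 on wild-type control arrays. With Wnt3a it read 10.29, 10.36 and 10.52 on knockout arrays, against 11.61, 11.64 and 11.80 on wild-type arrays. The differences were -1.25 ± 0.08 (2.38-fold lower in the knockout) and -1.30 ± 0.08 (2.46-fold lower), and the interaction was -0.05. No 2 of the 4 groups overlapped, and the order from high to low was wild-type control, wild-type Wnt3a, knockout control and knockout Wnt3a. The second probe set was 2.53-fold and 2.10-fold lower in the knockout, by -1.34 and -1.07, with an interaction of 0.27 ± 0.10. Its knockout arrays of the 2 media differed by 0.04, against -0.24 for the first.

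Gstt1, a theta-class enzyme that acts on small halogenated compounds, was highest on knockout control arrays. It read 8.84, 8.38 and 8.38 there, against 7.79, 7.97 and 7.88 on wild-type control arrays, a difference of 0.65 ± 0.14 (1.57-fold). With Wnt3a it read 7.93, 7.87 and 8.08 on knockout arrays, against 7.87, 7.45 and 7.48 on wild-type arrays, a difference of 0.36 ± 0.14 (1.28-fold), and the lowest knockout array, 7.8675, lay just above the highest wild-type array, 7.8655. Within the knockout, all Wnt3a arrays were below all control arrays, by -0.57 or 1.49-fold lower. The neighbouring groups in the order, knockout Wnt3a, wild-type control and wild-type Wnt3a, overlapped.

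Mgst1, a membrane-bound transferase and peroxidase of the endoplasmic reticulum and outer mitochondrial membrane, was lower on knockout arrays in control medium. It read 7.06, 7.07 and 6.95 there, against 7.52, 7.48 and 7.55 on wild-type control arrays, a difference of -0.49 ± 0.16 (1.40-fold lower in the knockout). With Wnt3a it read 6.33, 6.90 and 6.95 on knockout arrays and 7.42, 6.97 and 6.87 on wild-type arrays, and the genotypes overlapped. In wild type the Wnt3a arrays were all lower than the control arrays, by -0.43 (1.34-fold lower). Its second probe set lay below the floor on all 12 arrays and gives no fold, and with the mean of both probe sets, which includes those readings, the differences became -0.21 between genotypes in control medium, -0.11 with Wnt3a and -0.14 for Wnt3a in wild type.

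**Figure D3:**
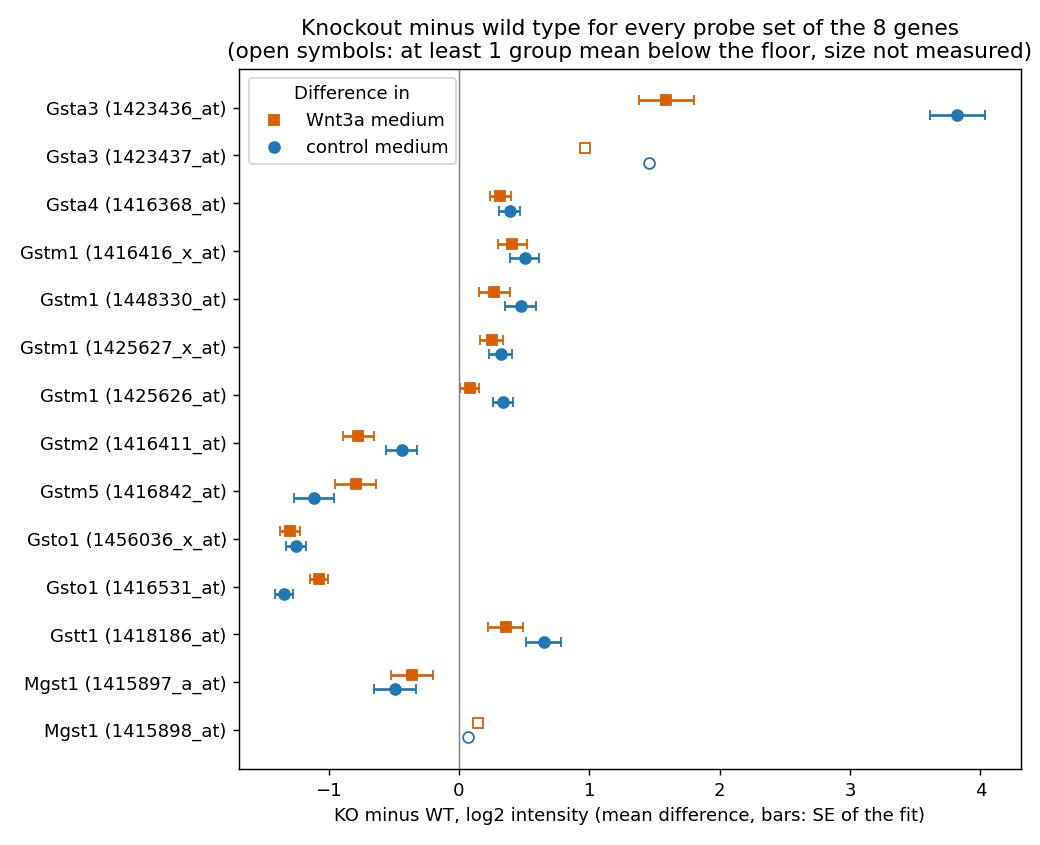
Knockout minus wild type in log2 intensity (horizontal axis) for each of the 14 probe sets of the 8 genes, in Wnt3a medium (squares) and control medium (circles), with the SE of the fit as bars and open symbols, with no bar, where a group mean lay below the floor and the size was not measured (the dim probe sets of Gsta3 and Mgst1). The bright Gsta3 probe set gave 3.82 in control medium, and the 2 Gsto1 probe sets -1.25 and -1.34.

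In control medium 4 of the 8 genes were higher and 4 lower in the knockout without overlap of the arrays, where 54.1% of all genes did not overlap, 26% higher and 28.1% lower. With Wnt3a, 4 were higher and 3 lower in the knockout without overlap, where 42.6% of all genes did not overlap, 20.3% higher and 22.3% lower. Between media in wild type, 2 were higher and 2 lower with Wnt3a without overlap, where 52.8% did not overlap, 24.5% higher and 28.3% lower. Between media in the knockout, 3 were lower with Wnt3a without overlap, where 43.8% did not overlap, 21.3% higher and 22.5% lower. Nothing is read from these counts, because the genes were chosen on the same values.

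Over the 12 arrays the log2 intensity of Gsta3 ran with Gsta4 (Pearson r = 0.837), Gstm1 (0.833) and Gstt1 (0.470), and against Gstm5 (-0.904), Gsto1 (-0.895), Mgst1 (-0.809) and Gstm2 (-0.769). These correlations describe 12 arrays that share the 4 groups and carry no test.

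The rest of the family was read from a list of 23 other transferase and MAPEG genes, of which 21 were matched on the array and 16 were bright enough to test. Gsta2, Gsto2, Gstt4, Hpgds and Mgst2 lay below the floor on all arrays. In control medium 3 rose and 5 fell in the knockout, 8 of 16, where 42.2% of all genes were called, 19.9% higher and 22.3% lower, with a median difference of 0.06 against 0.01 over all genes. Gstp3, a pi-class gene, rose by 1.01 ± 0.14 (2.02-fold, adjusted p = 0.000103 in limma). Ptges2, a prostaglandin E synthase, rose by 0.26 (adjusted p = 0.0138), a call lost without knockout control replicate 1 (adjusted p = 0.0556) or wild-type control replicate 1 (0.0596), all in limma.

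The 5 that fell were Gstt2, Gstt3, Mgst3, Gstk1 and Gstcd. The theta-class genes Gstt2 and Gstt3 fell by 0.49 ± 0.13 (adjusted p = 0.0114) and 0.45 ± 0.09 (adjusted p = 0.00207) in limma, the opposite direction to Gstt1. Gstk1, a mitochondrial and peroxisomal kappa-class enzyme, fell by 0.33 (limma adjusted p = 0.00515) and Gstcd by 0.30 (0.0174). Gstcd was no longer called without knockout control replicate 2 (limma adjusted p = 0.0739) or wild-type control replicate 1 (0.0531). Mgst3, a relative of Mgst1, fell by 0.39 (limma adjusted p = 0.000643) on its brightest probe set, but its other probe set gave 0.15, and with the mean of both the fall of 0.12 did not pass (adjusted p = 0.187).

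With Wnt3a, 4 of the 16 rose and 1 fell in the knockout, where 28% of all genes were called, 13.2% higher and 14.7% lower, with a median of 0.10. Gstp3 rose by 0.81 (limma adjusted p = 0.00125), Gstm3 by 0.31 (0.016), Gstk1 by 0.30 (0.0146) and Gstm4 by 0.22 (0.0491), and Mgst3 fell by 0.34 (0.00351). The Gstk1 call was lost without wild-type Wnt3a replicate 1 (limma adjusted p = 0.0552), the Gstm3 call without knockout Wnt3a replicate 2 (0.0521), and the Gstm4 call without any array but replicate 1 of either genotype with Wnt3a (0.0572 to 0.192). With the mean of all probe sets of a gene the Mgst3 and Gstm3 calls were lost (limma adjusted p = 0.297 and 0.108), and with a fit of the compared arrays alone the Gstk1 and Gstm4 calls were lost (0.0632 and 0.128).

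Between media in wild type, 6 of the 16 fell with Wnt3a and 1 rose, where 41.5% of all genes were called, 18.9% higher and 22.6% lower, with a median of -0.08 against -0.02 over all genes. Gstt2 fell by 0.81 (limma adjusted p = 0.000715), Gstt3 by 0.75 (0.000128) and Alox5ap, which presents arachidonic acid to lipoxygenase, by 0.71 (0.00708). Gstz1, the zeta-class maleylacetoacetate isomerase, rose by 0.30 (limma adjusted p = 0.0134), a call lost without wild-type control replicate 3 (0.0546). In the knockout, Alox5ap, Gstt3 and Mgst3 fell with Wnt3a, by 0.78, 0.48 and 0.29, and Gstz1 and Gstk1 rose by 0.36 and 0.33, where 28% of all genes were called, 13.3% higher and 14.7% lower, with a median of -0.10. The Mgst3 call was lost with the mean of its probe sets (limma adjusted p = 0.0674). Gstk1 gave the interaction of 0.64 ± 0.11 (limma adjusted p = 0.014), the only 1 of the 16 that passed, where 4.08% of all genes were called, 2.2% higher and 1.88% lower. Centring each array on its median moved the share of called genes that were higher with Wnt3a to 61.4% in wild type, against 45.6% without centring, and to 66.2% in the knockout, against 47.5%.

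The genes around the transferases moved in both directions in control medium. In the list of glutathione synthesis, recycling and breakdown, 7 of 16 tested genes rose and 2 fell in the knockout, where 19.9% of all genes were called higher and 22.3% lower, with a median of 0.11. Gss, glutathione synthetase, rose by 0.96 ± 0.11 (1.95-fold, limma adjusted p = 2.8e-05), Cbs, which makes cystathionine, by 0.69 and the peptidase gene Lap3 by 0.66, whereas Gclc, the catalytic subunit of the rate-limiting enzyme of glutathione synthesis, fell by 0.61 ± 0.11 (adjusted p = 0.000986 in limma). Cth and Slc3a2 did not pass, with 0.14 and -0.09. Of the 23 peroxidase, glutaredoxin, thioredoxin and peroxiredoxin genes, 8 rose and 9 fell, where 42.2% of all genes were called, with a median of -0.07. Gpx8, an endoplasmic reticulum peroxidase, fell by 1.28 ± 0.16 (2.42-fold lower), and Gpx2, a peroxidase of epithelia, rose by 1.12 (limma adjusted p = 0.0285). The Gpx2 call was lost without any 1 of the 3 knockout control arrays (limma adjusted p = 0.0503 to 0.0752) or wild-type control replicate 1 (0.104) or 3 (0.0676).

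Among 27 genes of the Nrf2 pathway outside the transferases, 4 rose and 7 fell in the knockout in control medium, with a median of -0.07. That is 11 of 27, a share near the 42.2% called over all genes. The 4 called genes with the largest differences were Gpx2 (1.12), Akr1b8 (1.03), Maff (-0.89) and Ephx1 (0.70). Their limma adjusted p was 0.0285, 0.00214, 7.25e-05 and 0.00792. Nfe2l2 itself had differences of 0.11 in control medium and 0.13 with Wnt3a, and Keap1 0.08 and -0.04, and none passed (limma adjusted p = 0.228, 0.171, 0.347 and 0.705). Nqo1, a quinone reductase used as a marker of Nrf2 activity, had 0.67 (limma adjusted p = 0.0467) in control medium, and 0.63 (0.0801) with Wnt3a. The control-medium call was lost without any 1 of the 3 knockout control arrays (limma adjusted p = 0.0698 to 0.116), wild-type control replicate 1 (0.183) or 3 (0.0923), or replicate 2 of the knockout (0.0591) or wild type (0.0599) with Wnt3a, and the other was gained without knockout replicate 1 (0.0349) or wild-type replicate 3 (0.0221) with Wnt3a. Hmox1, heme oxygenase, had -0.03 and -0.08, neither passing (limma adjusted p = 0.846 and 0.565). Gclm, the regulatory partner of Gclc, fell by 0.33 (limma adjusted p = 0.0221), a call lost with the mean of its probe sets (adjusted p = 0.189) and without knockout control replicate 2 (0.0841) or wild-type control replicate 2 (0.085) or 3 (0.0864).

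Of 8 exporter and mercapturate genes 2 rose in the knockout in control medium, the exporter gene Abcc5 by 0.89 (0.45 with the mean of its probe sets) and Acy1 by 0.24, and none fell, where 42.2% of all genes were called. The Acy1 call was lost without knockout control replicate 3 (limma adjusted p = 0.114) or wild-type control replicate 1 (0.11) or 3 (0.0533). Of 17 aldehyde and carbonyl genes 4 rose and 4 fell, with Akr1b8 rising by 1.03 and the glyoxalase genes Glo1 and Hagh by 0.67 and 0.54. Those 8 of 17 are again near the share over all genes. The list of xenobiotic receptor and phase I genes has 18 genes, of which 16 were on the array and 12 bright enough to test. All 12 passed, 8 higher and 4 lower, where 42.2% of all genes were called, 19.9% higher and 22.3% lower. Their median was 0.54 against 0.01 over all genes. This list too was written with earlier results of these data known, so nothing is read from its count. Of these, the epoxide hydrolase gene Ephx2 rose by 1.08 and Cyp2s1 by 0.77. The aryl hydrocarbon receptor gene Ahr fell by 0.77 (by 0.29 with the mean of its probe sets) and its target Cyp1b1 by 0.89. In the same list Tiparp rose by 0.61 and Arnt by 0.49, and Ahrr and Cyp1a1 were too dim to test. With Wnt3a the same 12 genes gave 4 higher and 2 lower, where 28% of all genes were called, 13.2% higher and 14.7% lower.

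With Wnt3a the knockout effect gave 6 higher and 2 lower of the 16 glutathione synthesis genes, 3 and 5 of the 23 peroxidase and thioredoxin genes, 2 and 4 of the 27 Nrf2 genes, 1 and 0 of the 8 exporter genes and 3 and 0 of the 17 aldehyde genes. Over all lists, without double counting, 33 of 109 tested genes rose and 28 fell in control medium, where 42.2% of all genes were called, and 22 rose and 12 fell with Wnt3a, near the 28% called over all genes. Between media, 21 of the 109 rose and 30 fell with Wnt3a in wild type, where 41.5% of all genes were called, and 13 rose and 17 fell in the knockout, near the 28% called over all genes. Gclc rose with Wnt3a by 0.47 in wild type (limma adjusted p = 0.00679, and 0.422 with the mean of its probe sets) and by 0.62 in the knockout (0.00253, and a rise of 0.33 with the mean of its probe sets). Hmox1 fell by 0.31 in wild type (limma adjusted p = 0.0197) and by 0.36 in the knockout (0.0137). The wild-type Hmox1 call was lost without wild-type control replicate 2 (limma adjusted p = 0.069) or 3 (0.0547) or wild-type Wnt3a replicate 1 (0.055) or 2 (0.0641), and the knockout call without knockout control replicate 3 (0.0622).

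**Figure D4:**
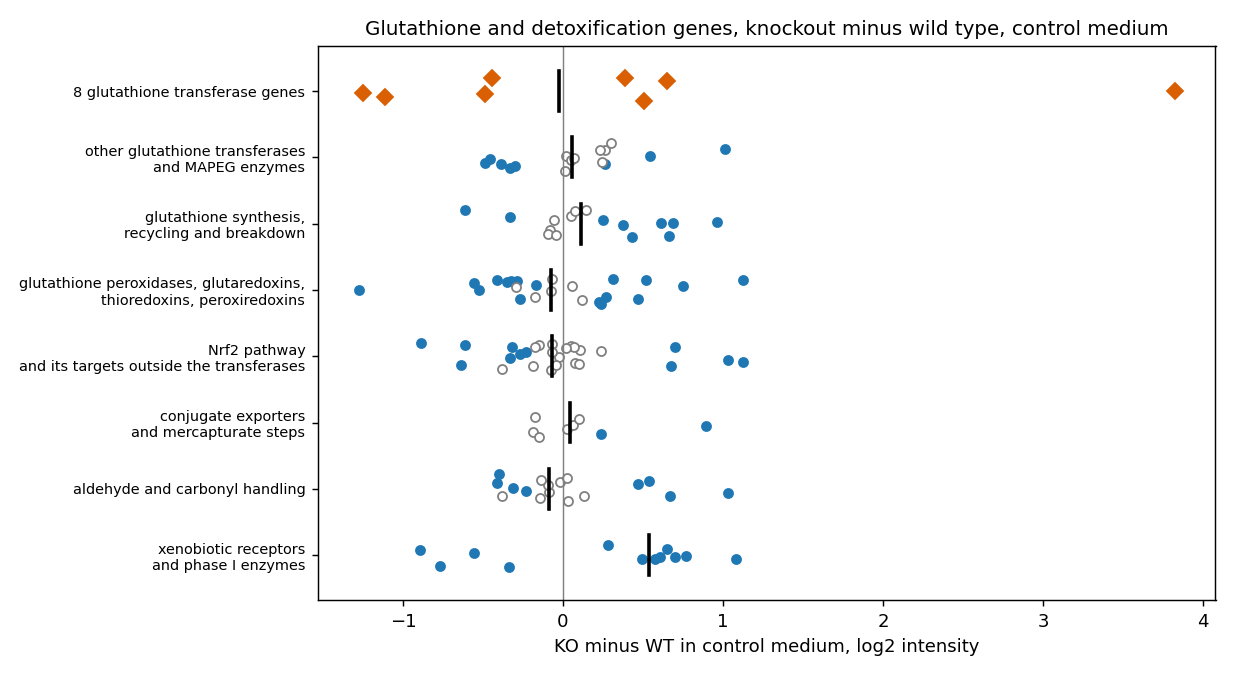
Knockout minus wild type in control medium, in log2 intensity (horizontal axis), for each tested gene of the 8 transferase genes (diamonds) and 7 lists of other genes (circles, filled where the adjusted p was under 0.05), with list medians as vertical bars. The 8 genes run from -1.25 for Gsto1 to 3.82 for Gsta3, and the 12 tested xenobiotic genes have a median of 0.54. The lists were written with earlier results of these data known.

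Genes were then ranked by how closely their log2 intensity followed that of Gsta3 over the 12 arrays. The 6 closest, after 2 predicted genes were passed over, were Ddx58, an RNA sensor (Pearson r = 0.990), Elovl6, a fatty acid elongase (0.990), Ift52 of the ciliary transport complex (0.986), Manba, a lysosomal mannosidase (0.986), Jam2, a junction protein (0.985) and Smarcd3 (0.982). In each of the 6, knockout arrays of both media averaged highest, wild-type Wnt3a arrays came between and wild-type control arrays lowest. For Manba the differences were 2.50 between genotypes in control medium and 1.18 for Wnt3a in wild type. The correlations rest on 4 groups of arrays, and 132 genes had r over 0.95.

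**Figure D5:**
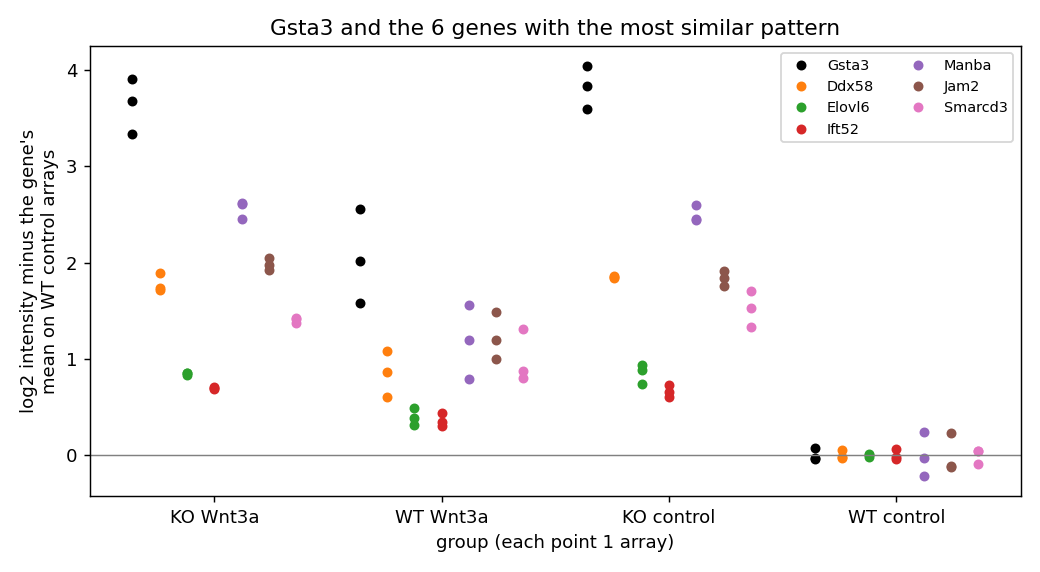
Log2 intensity of Gsta3 and the 6 genes closest to it on each array (points), minus the gene's own mean on wild-type control arrays (vertical axis), by group (horizontal axis). Gsta3 lies 3.82 above its wild-type control mean on knockout control arrays and 2.05 above it on wild-type Wnt3a arrays.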

How the data were processed

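Total RNA of mouse embryonic stem cells was labelled with biotin and hybridised to 12 arrays, 3 in each of 4 groups taken from the labels. The authors deposited 1 table of processed intensity values on a linear scale for 45101 probe sets, made with RMA per the submitters' processing notes, with no version named. These deposited intensities were converted to log2, with no pseudocount.

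The platform annotation named the probe sets: 64 were array controls, 34945 carried 1 symbol, 932 carried several and were not named, and 9160 were not listed. Of 18194 Entrez identifiers, 18032 were found in RefSeq. Each of 18193 genes was represented by its brightest probe set, and 13811 were kept with at least 3 arrays above the 40th percentile of values (5.56 on the log2 scale, intensity 47.2), which also served as the floor for lower bounds on folds.

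Group means were fitted over all arrays by limma 3.58.1 under R 4.3.3, using lmFit and two-sided eBayes tests, with Benjamini-Hochberg adjustment over all kept genes and a threshold of 0.05. The fit was tested on simulated data. Alternatives were the filter, the probe set per gene, median centring, repeated quantile normalization, a trended prior, a fit of the compared arrays alone, the replicate block and each array left out.

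The 8 genes and the 7 pathway and 6 marker lists were chosen with earlier results of these data known. Named genes were the 8 genes, the other transferases, from each list up to 4 called genes with the largest difference in control medium and up to 2 that did not pass, a few Nrf2 genes, Tcf7l1, and the 6 genes closest to Gsta3. Motifs were searched in RefSeq windows of GRCm38.p6.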

Additional observations from a re-analysis of the deposited data

Results flagged for a closer look

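The interaction term of the limma fit compares the knockout effect with Wnt3a with that in control medium. Of the 109 tested genes of the lists, it passed for 2 as higher and 4 as lower. Over all genes 4.08% were called, 2.2% higher and 1.88% lower. Cbr1 (0.43, limma adjusted p = 0.0347) and Tiparp (-0.47, 0.0391) were among those that passed, and the other 4 follow. Gstk1 had 0.30 with Wnt3a and -0.33 in control medium, a difference of 0.64 (limma adjusted p = 0.014). Ephx2, the soluble epoxide hydrolase gene, had 0.04 and 1.08, a difference of -1.04 (limma adjusted p = 0.0145). Glrx2, a mitochondrial glutaredoxin gene, had -1.06 and -0.55, a difference of -0.51 (limma adjusted p = 0.0462), which was lost without 10 of the 12 arrays in turn (0.0568 to 0.108). The Glrx2 call was also lost with the mean of its probe sets (-0.35, limma adjusted p = 0.145). It was lost too with no filter (0.0539), repeated quantile normalization (0.0518) and the replicate block (0.0703), all in limma. Lap3 had 0.27 and 0.66, a difference of -0.39 (limma adjusted p = 0.0492), lost without 10 of the 12 arrays in turn (0.0646 to 0.123). The Lap3 call was also lost with median centring (limma adjusted p = 0.0597), no filter (0.0625) and the replicate block (0.0652).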

How the results depend on the processing

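Each array was left out in turn, and the number of genes called ran from 4778 to 5951 (5824 with all arrays) for the knockout effect in control medium, 2813 to 3959 (3863) with Wnt3a, 4259 to 5921 (5733) for Wnt3a in wild type, 2393 to 4011 (3872) for Wnt3a in the knockout and 151 to 952 (563) for the interaction. The 2393 came without knockout control replicate 3. The interaction count moved by over 1.5 times without any 1 array except knockout control replicate 2 and knockout Wnt3a replicate 1, with 151 without wild-type control replicate 3 and 952 without wild-type Wnt3a replicate 1. Of the 16 other transferases, 6 to 9 were called for the knockout effect in control medium (8 with all arrays) and 3 to 5 with Wnt3a (5), the 3 without knockout Wnt3a replicate 2. When all probe sets of a gene were averaged, and when the compared arrays alone were fitted, 3 were called with Wnt3a. The knockout differences of the 8 transferase genes kept their sign under every alternative in both media, and 15 of their 312 values under settings other than leaving out an array moved by more than the spread between replicates, mostly with the mean of probe sets. Other values of these genes changed sign under some alternatives. For Wnt3a in wild type they were Gsta4 (-0.07 to 0.11) and Gstm5 (-0.32 to 0.04). For Wnt3a in the knockout they were Gsta4 (-0.10 to 0.03) and Gstm1 (-0.07 to 0.19). For the interaction they were Gsto1 (-0.11 to 0.11), Gsta4 (-0.15 to 0.01) and Gstm1 (-0.21 to 0.01). Outside these genes, values near 0 that changed sign were Nfe2l2 for Wnt3a in wild type (0.19 with the mean of probe sets, 0.0713 with median centring, -0.0217 to 0.0235 with arrays left out) and in the knockout (-0.0515 with quantile normalization, -0.0338 to 0.0563), Keap1 for Wnt3a in the knockout (0.0693 with the mean, 0.0276 with centring) and for the knockout effect with Wnt3a (0.0211 with quantile normalization, -0.0715 to 0.0037), and Gclm for Wnt3a in the knockout (0.0057 with centring). With arrays left out, so did the knockout effect in control medium of Hmox1 (-0.13 to 0.0731), Gstm4 (-0.0059 to 0.0370), Gstm7 (-0.0372 to 0.0596), Ltc4s (-0.0094 to 0.16) and Gstz1 (-0.0022 to 0.11). The cause was not tested.

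The labels do not say whether arrays with the same replicate number were prepared together. The correlations of deviations of 18 same-numbered pairs ran from -0.257 to 0.244, and 4 exceeded 0.1. With 3 arrays a group these values do not settle it. With the replicate block, 5600 genes were called for the knockout effect in control medium, 3622 with Wnt3a, 5474 and 3553 for Wnt3a in wild type and knockout, and 394 for the interaction.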

Other observations

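A probe set annotated to Gm3776, Gsta2 and Gsta1 together read 4.96 to 5.43 on the log2 scale and lay above the floor on 0 of 12 arrays.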
